A study of Homo sapiens with 4 samples.

Results

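The comparison set the gene expression of K562 against that of cells labelled HepG2, in control cells and in cells depleted of ADAR. Genes were included if a transcript cluster with a single gene symbol reached, as a mean log2 intensity, the median over all genes in at least 1 of the lines. This held for 8028 of 14232 genes: 6204 reached it in both lines, 912 on the arrays labelled HepG2 alone and 912 in K562 alone. The medians were 5.31 on the arrays labelled HepG2 and 5.28 in K562. Just inside the limit were CHDH, at 5.28 in K562 and 4.57 on the arrays labelled HepG2, and PNPLA3, at 5.31 on the arrays labelled HepG2 and 4.18 in K562. FBXW9 (4.97 on the arrays labelled HepG2, 5.28 in K562) and MPP3 (5.26 and 5.28) lay just outside.

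The series asked how ADAR, an enzyme that turns adenosine into inosine in double-stranded RNA, acts on splicing, and only its gene-level intensities from exon arrays are described here. There were 4 arrays in 4 groups: SCR and ADARkd for each line. Cells of all 4 groups carried a stably transfected plasmid. In the SCR groups it held a scrambled siRNA, and in the ADARkd groups an siRNA chosen from several as the one that lowered ADAR most. HepG2 was grown in DMEM and K562 in RPMI medium, so line and medium cannot be told apart. The labels do not say whether a transfected line was 1 clone or whether arrays came from separate cultures. K562 minus HepG2 was taken within SCR and within ADARkd and averaged, so a value below rests on 2 arrays per line that differ in arm.

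K562 is a chronic myeloid leukemia line that carries the BCR-ABL1 fusion and can make embryonic and fetal globins. Its erythroid state is set by GATA1, TAL1, KLF1 and their partners, which bind GATA and CACCC motifs in genes for globins, heme enzymes and red-cell membrane proteins. HepG2 is a liver tumor line known for secreting albumin, alpha-fetoprotein and other plasma proteins. Cells that grow attached spread on matrix through integrins and focal adhesions, and this state is read by the cofactors YAP and TAZ, which act through TEAD factors. K562 grows in suspension.

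The labels were first set against marker genes. ADAR stood at log2 intensities of 8.96 (SCR) and 7.27 (ADARkd) on the arrays labelled HepG2 and at 7.99 and 6.78 in K562, lower in the ADARkd array of each line. In K562, 14 of the 18 erythroid and blood transcription regulators measured lay at or above the median, against 5 of 18 on the arrays labelled HepG2. Of 33 hepatocyte genes measured, only CPS1 and FOXA1 lay at or above the median on the arrays labelled HepG2, fewer than the 4 that did so in K562. The albumin gene ALB was at 3.04 (SCR) and 2.97 (ADARkd) on the arrays labelled HepG2 and at 3.19 and 3.39 in K562. AFP, which codes for alpha-fetoprotein, was at 2.89 and 2.85 against 3.25 and 3.35, and TF, the transferrin gene, at 2.10 and 2.36 against 3.01 and 2.65. The defining secreted proteins of HepG2 thus lay low on all 4 arrays, and the name is used below only as the label. Of genes that mark other tissues, 1 of 10 lung, 3 of 14 gut and pancreas, 2 of 6 squamous, 1 of 12 kidney and Mullerian and 0 of 10 endothelial genes lay at or above the median on those arrays. These are bulk RNA measurements, so fewer cells of a type and less RNA per cell cannot be told apart.

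A gene was called when its lines were 2-fold or more apart and limma, fitted with line and arm as terms, gave an adjusted p below 0.05. Of the 8028 genes, 2017 were called. Over all 14232 genes tested, 16.1% were called in either direction, 6.84% higher in K562 and 9.26% higher in the cells labelled HepG2. Among the included genes 830 were higher in K562 and 1187 in the cells labelled HepG2. A gene included through a single line had to differ, so these counts are no evidence by themselves: 467 of the 912 genes above the median in K562 alone were called, 675 of the 912 on the arrays labelled HepG2 alone, and 875 of the 6204 above it in both lines (363 higher in K562, 512 higher in the cells labelled HepG2). Differences of 16-fold or more were called for 48 genes in K562 and 111 in the cells labelled HepG2. The median difference was 0.20 over all genes and 0.05 over the included genes, and it was 0.09 and 0.13 after quantile normalization. The p-values rest on 1 residual degree of freedom, which is the difference between the arms, and on the spread across genes. Fits with 1 array left out, here and below, held no arm term. They set 1 arm of a line against both arms of the other, so a change between arms enters them. Without the SCR array of K562 the count fell to 1192 and without its ADARkd array to 1153.

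**Figure D1:**
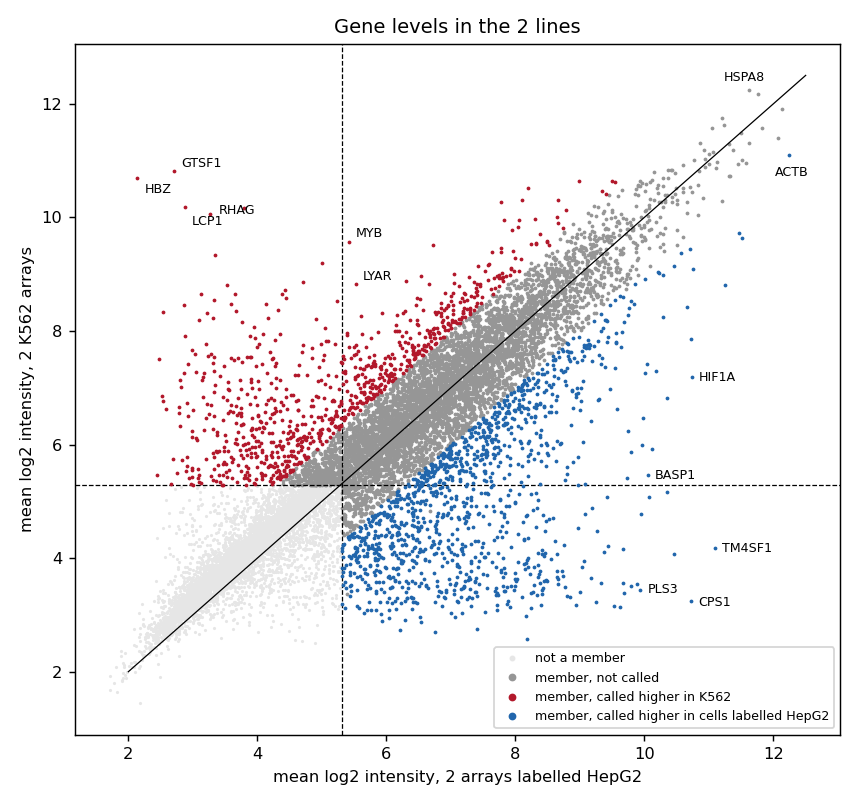
Mean log2 intensity of each gene on the 2 K562 arrays (vertical axis) against the 2 arrays labelled HepG2 (horizontal axis). Dashed lines mark the median of all genes in each line, the diagonal marks equal levels, and colors mark the 830 genes called higher in K562 and the 1187 called higher in the cells labelled HepG2. HBZ, GTSF1 and LCP1 lie at the upper left and CPS1 and TM4SF1 at the lower right.

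The largest difference in favor of K562 was that of an embryonic globin. HBZ, the embryonic alpha-like chain zeta, was at 2.13 (SCR) and 2.15 (ADARkd) on the arrays labelled HepG2 and at 10.73 and 10.65 in K562, a difference of 8.55 ± 0.21 (SE, n = 2 arrays per line; adjusted p = 1.26e-07). HBB, the adult beta chain, stood at 3.54 and 3.59 against 5.50 and 5.60, a difference of 1.99 ± 0.18. The theta chain HBQ1 was at 4.71 and 5.01 against 5.66 and 5.57, and its difference of 0.75 was under 2-fold. K562 lay above the other line on every array for these 3 genes, but all 3 were included through K562 alone, which fixed their direction. The other 2 globin genes measured were under the median in both lines. Only 5 of 11 globin genes listed had a cluster of their own, because clusters that carry several symbols were not named. Near-identical globin genes can share probes, so the values of single chains are uncertain.

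Genes of the red-cell surface and membrane skeleton were called in 1 direction. Of 16 measured, 10 were included, and 8 of these were called higher in K562 and 0 in the cells labelled HepG2. The median difference of the 16 was 1.82. Of the 8 genes called, 2 were above the median in both lines. The rest were included through K562 alone, which fixed their direction. With no filter 9 were called higher in K562 and 0 in the cells labelled HepG2. The ammonium channel RHAG, a core of the Rh complex, was at 3.33 and 3.20 on the arrays labelled HepG2 and at 10.07 and 10.04 in K562, a difference of 6.79 ± 0.21 (adjusted p = 2.12e-07). ANK1, the erythroid ankyrin, differed by 3.25, the blood group antigen gene KEL by 3.09, and SPTB, the erythroid beta spectrin, by 2.89. ERMAP, ICAM4, XK and EPB41, the last coding for protein 4.1, differed by 2.43, 2.13, 2.11 and 2.00. Without the SCR or the ADARkd array of K562 the call of XK was lost, at adjusted p = 0.0599 and 0.0648.

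The factors that set the erythroid program were also higher in K562. Of 18 erythroid and blood transcription regulators measured 14 were included, and 12 were called higher in K562 and 0 lower. The median over the 18 was 2.28. Of the 12 genes called, 3 were above the median in both lines, and the rest were included through K562 alone. With no filter 14 were called higher in K562 and 0 lower. NFE2, a subunit of the factor that drives globin and platelet genes, was at 3.51 and 3.996 on the arrays labelled HepG2 and at 8.19 and 8.14 in K562, a difference of 4.41 ± 0.22. The repressor gene GFI1B stood at 4.50 and 4.38 against 8.46 and 8.72, and MYB, a factor of blood progenitors, at 5.31 and 5.52 against 9.63 and 9.48, each a difference of 4.14 ± 0.22 (adjusted p = 1.03e-06 each). GATA1, the master regulator, was at 4.34 and 4.22 against 7.89 and 7.78. Its difference was 3.56 within SCR and 3.56 within ADARkd. TAL1, KLF1, LMO2 and IKZF1 differed by 2.72, 2.69, 2.45 and 2.38. GATA2, which GATA1 replaces as progenitors mature, was well above the median in both lines (6.77 and 6.69 against 7.24 and 7.09) and was not called (difference 0.44, adjusted p = 0.145).

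Heme synthesis and iron transport split by gene. Of 19 such genes 17 were included, and 10 were called higher in K562 and 0 lower. The median of the 19 was 1.09. Of the 10 genes called, 6 were above the median in both lines. ALAS2, the erythroid form of the first enzyme of heme synthesis, was at 3.67 and 3.51 on the arrays labelled HepG2 and at 8.64 and 8.31 in K562, a difference of 4.89 ± 0.21 (adjusted p = 4.47e-07). ALAS1, the form used by other tissues, was at 5.99 and 6.22 against 6.09 and 6.13, a difference of 0.01 ± 0.21. Among the later enzymes CPOX differed by 1.67 and UROD by 1.61, while FECH, which inserts the iron, differed by -0.14 and was not called. HEPH, a ferroxidase of the cell surface, was at 3.18 and 3.07 against 8.77 and 8.54, and SLC40A1, the iron exporter ferroportin, at 3.33 and 3.33 against 8.66 and 8.45. Their differences were 5.54 and 5.22. The transferrin receptor gene TFRC was high in both lines (10.22 and 10.60 against 10.97 and 10.70) and was not called (difference 0.42, adjusted p = 0.122).

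Promoter windows of 3 of these genes are shown because each holds a GATA motif, the site bound by GATA1. They are RefSeq sequences of build GRCh38.p14, 250 bases before to 50 after the gene start, on the minus strand, at chr6:49636790-49637089 for RHAG, chrX:55030928-55031227 for ALAS2 and chr19:12887152-12887451 for KLF1. Capitals mark matches to AGATAA or TGATAA, here all read on the opposite strand: TTATCA at base -31 in RHAG, TTATCT at -127 in ALAS2 and TTATCA at -66 in KLF1.
RHAG: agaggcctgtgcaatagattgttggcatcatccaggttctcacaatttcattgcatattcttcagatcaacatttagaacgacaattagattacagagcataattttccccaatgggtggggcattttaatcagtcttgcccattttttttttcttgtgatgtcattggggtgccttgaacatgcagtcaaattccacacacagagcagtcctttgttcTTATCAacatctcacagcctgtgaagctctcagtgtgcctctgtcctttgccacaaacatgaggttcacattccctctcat
ALAS2: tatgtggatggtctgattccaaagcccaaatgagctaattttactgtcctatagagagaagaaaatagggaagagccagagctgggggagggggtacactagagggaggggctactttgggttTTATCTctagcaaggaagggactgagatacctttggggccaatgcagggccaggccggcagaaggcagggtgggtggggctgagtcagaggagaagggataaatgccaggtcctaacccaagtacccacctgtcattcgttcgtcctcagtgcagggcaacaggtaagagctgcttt
KLF1: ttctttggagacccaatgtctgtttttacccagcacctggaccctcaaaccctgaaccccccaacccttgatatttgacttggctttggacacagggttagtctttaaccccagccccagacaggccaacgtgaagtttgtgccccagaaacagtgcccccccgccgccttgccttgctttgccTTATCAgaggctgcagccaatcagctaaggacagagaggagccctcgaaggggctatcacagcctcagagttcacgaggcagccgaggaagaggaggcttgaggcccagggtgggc
The motif was searched on both strands. It was found in 4 of 8 included red-cell surface and membrane genes with a window in the table, 3 of 11 transcription regulators and 3 of 14 heme and iron genes. Lists outside these varied, with 5 of 17 interferon-stimulated, 3 of 10 antigen presentation and 0 of 15 matrix genes. The share was 7.47% of the 6681 included genes with a window and 11.7% of all 11385 genes matched. It was 10.9% of the 654 genes called higher in K562, 8.68% of the 945 called higher in the cells labelled HepG2 and 6.81% of the 5082 not called. Mean GC content was 64.6%, 64.4% and 65.4% in these groups. Of the 35 genes at least 16-fold higher in K562 that have a window, 8 held the motif, and their mean GC content was 62.3%. Of the 86 such genes of the cells labelled HepG2, 10 held it. On the given strand alone the numbers were 2 of 35 and 7 of 86, so the order of these shares turned. A match is a description of letters and not of binding, and HBZ and NFE2 were matched to no window.

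**Figure D2:**
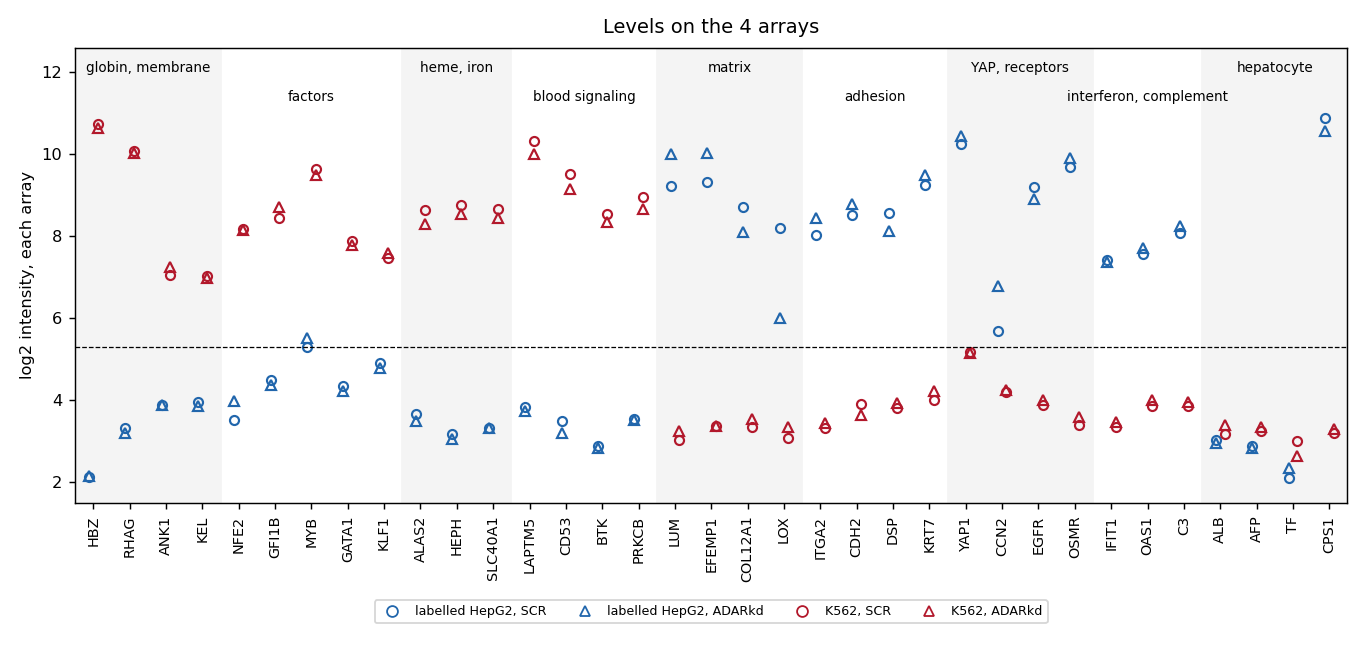
Log2 intensity of 35 genes on each of the 4 arrays, grouped by role; circles are SCR, triangles ADARkd, blue the arrays labelled HepG2 and red K562, and the dashed line is the median over all genes. Erythroid and blood genes lie high in K562 alone, matrix, adhesion, receptor and interferon genes on the arrays labelled HepG2 alone, and ALB, AFP and TF low on all 4.

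Signaling, receptor and cytoskeleton genes of blood cells gave more calls higher in K562 than any other list, but not a higher share. Per gene measured, their calls lay below those of the regulators (12 of 18), heme and iron genes (10 of 19) and red-cell genes (8 of 16). Of 47 measured 23 were included, 19 were called higher in K562 and 1 in the cells labelled HepG2. The median over the 47 was 0.71. Of the 19, 2 were above the median in both lines, and the rest were included through K562 alone. LAPTM5, a lysosomal membrane protein of blood cells, was at 3.84 and 3.75 against 10.33 and 10.01, a difference of 6.37 ± 0.21. The tetraspanin CD53 differed by 5.99, the tyrosine kinase BTK by 5.59, the kinase PRKCB by 5.28, and the leukocyte phosphatase CD45, coded by PTPRC, by 4.56. CXCR4, a chemokine receptor usual on blood cells, went the other way. It was at 8.95 and 7.13 on the arrays labelled HepG2 and at 3.99 and 3.89 in K562, a difference of -4.10 ± 0.35 (adjusted p = 2.19e-05).

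Many of these blood-cell genes have a close relative that other cells use, and 24 such pairs had both genes measured. The blood-cell gene was called higher in K562 in 16 pairs and the relative called higher in the cells labelled HepG2 in 8. Both calls met in 4 pairs. Among the plastins, which bundle actin filaments, LCP1 was at 2.87 and 2.88 on the arrays labelled HepG2 and at 10.22 and 10.15 in K562. PLS3 was at 9.56 and 10.31 against 3.37 and 3.51. Their differences were 7.31 ± 0.21 and -6.49 ± 0.23. The GTPases RAC2 and RAC1 differed by 1.67 and -1.90, the exchange factors VAV1 and VAV2 by 2.33 and -1.04, and the transcription factors KLF1 and KLF5 by 2.69 and -3.32. The calls of RAC2 and VAV2 were lost without the SCR array of K562 (adjusted p = 0.0726 and 0.0649) or without its ADARkd array (0.0667 and 0.0836), and VAV2 was under 2-fold after quantile normalization (-0.98).

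In 10 pairs the relative was included and not called beside a blood-cell gene called higher in K562. NCKAP1L of the WAVE complex differed by 5.10 and NCKAP1 by -0.50. PRKCA, at 6.61 and 6.25 against 6.63 and 6.34, differed by 0.06 beside the 5.28 of PRKCB. LAPTM4B differed by 0.33, and the cortactin CTTN by 0.09 beside 2.53 for HCLS1. GATA6 differed by 0.07 beside 3.56 for GATA1. In 4 more pairs the relative alone was called. MYO1E, a long-tailed myosin, was at 9.50 and 9.84 against 3.48 and 3.63, while its blood-cell relative MYO1F was below the median on all 4 arrays (4.14 and 4.08 against 5.02 and 4.96). The kindlin FERMT2 differed by -3.40, and FERMT3 was below the median in both lines. No blood-cell gene of the 24 pairs was called higher in the cells labelled HepG2, and no relative higher in K562.

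**Figure D3:**
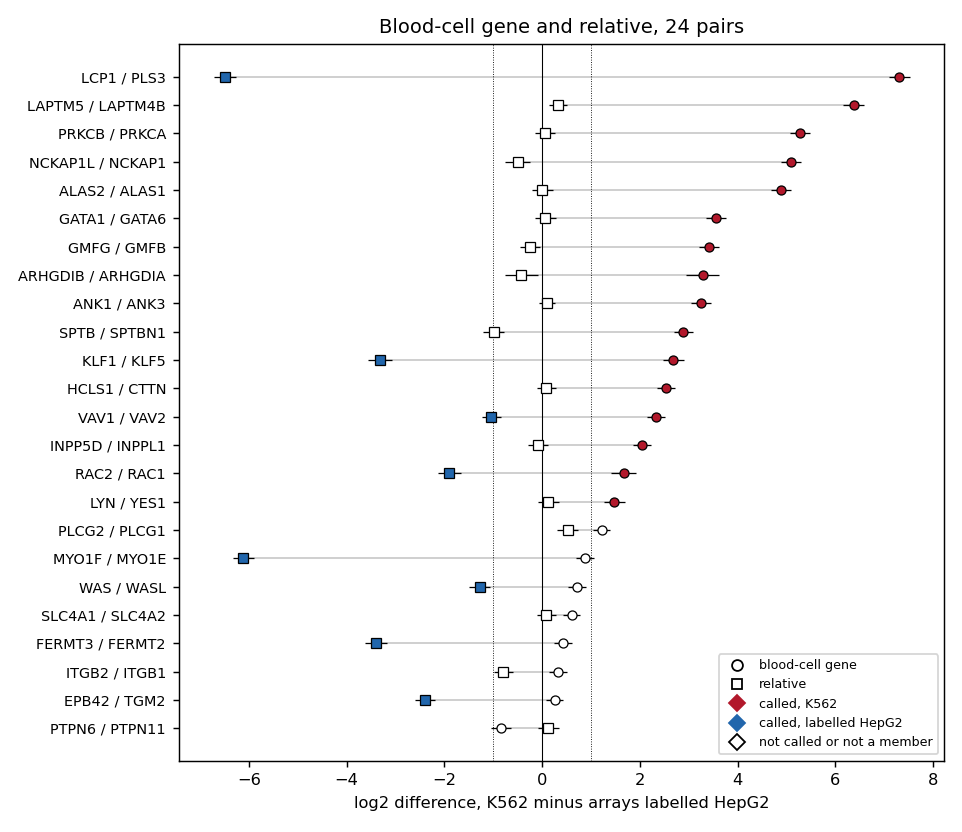
Log2 difference, K562 minus arrays labelled HepG2, of a blood-cell gene (circle) and its relative (square) in 24 pairs; bars are the standard errors of the fit (2 arrays per line), filled symbols are included genes that were called, and dotted lines mark 2-fold. LCP1 and PLS3 lie farthest apart, at 7.31 and -6.49.

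Other blood lineages were thinly represented. Of 20 megakaryocyte and platelet genes measured 5 were included; GP6, a collagen receptor of platelets, differed by 1.24 and the integrin chain ITGA2B by 1.0004, while RAB27B, which acts in granule release, differed by -2.60. These were 2 calls for K562 and 1 for the cells labelled HepG2; without the SCR array of K562 the former number was 1, and without the ADARkd array labelled HepG2 the numbers were 1 and 2. The shares over all genes tested were 6.84% higher in K562 and 9.26% higher in the cells labelled HepG2. ITGA2B was at 4.51 and 4.37 against 5.65 and 5.23. After quantile normalization its difference of 0.95 was under 2-fold, as was that of GP6 (0.81) on log2 of intensity plus 16. Without the SCR array of K562 ITGA2B differed by 0.79 (adjusted p = 0.0706), and without the ADARkd array labelled HepG2 by 0.93. Of 17 myeloid genes 4 were included, with 2 called higher in K562 and 0 lower. Of these 2, 0 were above the median in both lines. None of 15 lymphoid genes reached the median in either line. Their medians were 3.78 on the arrays labelled HepG2 and 3.96 in K562.

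BCR-ABL1 is known to act through CRKL and STAT5. Of 13 genes of this list 12 were included, 7 were called higher in K562 and 2 in the cells labelled HepG2. CCND2, a D-type cyclin and STAT5 target, was at 2.83 and 3.01 against 7.49 and 7.34, a difference of 4.50 ± 0.20. SOCS2 and CISH, feedback inhibitors of JAK and STAT signaling, differed by 2.79 and 1.74, the kinase gene PIM2 by 1.52, and the adaptor CRKL by 1.88. SPRY4 and BCL2L1 were also called higher in K562. Of the 21 included genes centered on CRKL along chromosome 22, 15 were called higher in K562. ABL1 itself was at 8.11 and 8.24 against 8.99 and 8.85, a difference of 0.74 that was under 2-fold. DUSP6, a phosphatase that ERK induces, was at 5.33 and 6.50 against 3.03 and 3.02, and ID1 at 7.57 and 7.89 against 5.91 and 5.99. Their differences were -2.89 and -1.78.

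K562 is known to lack the CDKN2A locus at 9p21. Of 17 genes of that neighborhood 7 were included, and 5 were called higher in the cells labelled HepG2 (3 with either K562 array left out) and 0 in K562. Of the 5, 1 was above the median in both lines, and the rest were included through the arrays labelled HepG2 alone. CDKN2A, which codes for the cell-cycle inhibitors p16 and ARF, was at 7.41 and 7.54 against 4.12 and 4.06, a difference of -3.38 ± 0.20. Its neighbor CDKN2B differed by -2.45 and KLHL9 by -3.17. MLLT3 and TUSC1 differed by -1.25 and -1.02; without the SCR array of K562 their adjusted p was 0.112 and 0.0566 and without its ADARkd array 0.168 and 0.0638. MLLT3 also differed by -0.85 without the ADARkd array labelled HepG2. Over the 21 included genes centered on CDKN2A, 6 were called higher in the cells labelled HepG2 and 2 in K562, at a median of -0.48. These 2, looked up after their values were seen, were PLIN2 (3.70) and MOB3B (1.38), and the call of MOB3B was lost with either K562 array left out (adjusted p = 0.0843 and 0.135).

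Over all genes tested 6.84% were called higher in K562 and 9.26% in the cells labelled HepG2. Among 43 cell-cycle genes, all of which were included, 5 were called higher in K562 and 4 in the cells labelled HepG2. With either K562 array left out the former number was 1, and without the SCR array labelled HepG2 it was 3. Without the ADARkd array of K562 the latter number was 1. CCND1 differed by -2.74, opposite to CCND2, and without the ADARkd array of K562 its adjusted p was 0.0567.

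Genes normally confined to the germ line were among those farthest apart, but few of that list were. Of 29 measured 8 were included, 6 were called higher in K562 and 1 in the cells labelled HepG2. Of these calls 0 were above the median in both lines, so inclusion had already fixed their direction. With no filter 7 were called higher in K562 and 1 in the cells labelled HepG2. The median over the 29 was 0.27. GTSF1, which acts in the piRNA pathway, was at 2.67 and 2.74 on the arrays labelled HepG2 and at 10.81 and 10.82 in K562, a difference of 8.11 ± 0.21 (adjusted p = 1.26e-07). TEX15 differed by 5.79 and SYCP2, of the meiotic chromosome axis, by 5.03. Outside the list, the meiotic gene TEX11 differed by 5.03 and CTCFL, the germ-line relative of CTCF, by 5.10. MAGEB2 was at 7.89 and 8.39 against 4.76 and 3.90, a difference of -3.81. Of 8 oncofetal genes measured 4 were included and 3 were called higher in K562. LIN28B, which blocks let-7 maturation, differed by 4.33, DLK1 by 4.29 and IGF2BP1 by 1.69.

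Genes of the extracellular matrix were called mainly higher in the cells labelled HepG2. Of 38 matrix glycoprotein and fibroblast surface genes 22 were included, 18 were called higher in the cells labelled HepG2 and 1 in K562. The median over the 38 was -0.97. Of the 18, 1 was above the median in both lines, and the rest were included through the arrays labelled HepG2 alone. The small proteoglycan gene LUM was at 9.24 and 10.02 on the arrays labelled HepG2 and at 3.02 and 3.26 in K562, a difference of -6.49 ± 0.23 (adjusted p = 2.52e-07). Its relative DCN differed by -5.03. EFEMP1, a fibulin, was at 9.33 and 10.02 against 3.37 and 3.39. TGFBI, FBN2 and TIMP2 differed by -4.89, -4.84 and -4.57. SPARC, a secreted collagen-binding protein, was the exception at 3.65 and 3.66 against 8.77 and 8.53, a difference of 5.00 ± 0.21. Genes usual in fibroblasts were split. THY1 was at 3.21 and 3.23, POSTN at 2.96 and 2.85 and MMP2 at 3.80 and 3.30 on the arrays labelled HepG2, all below the median. Beside LUM and DCN, the fibrillin FBN1, the surface enzyme NT5E and the protease FAP were called higher there, at differences of -4.49, -3.28 and -2.24. The call of FAP was lost with either K562 array left out (adjusted p = 0.113 and 0.114).

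Of 29 genes for collagens and the enzymes that modify them 20 were included, 11 were called higher in the cells labelled HepG2 and 0 in K562. The median was -0.39. Of the 11, 2 were above the median in both lines. With either K562 array left out the number called higher in the cells labelled HepG2 was 4. COL12A1 was at 8.71 and 8.10 against 3.34 and 3.55, a difference of -4.96 ± 0.24. LOXL2, which crosslinks collagen, was at 8.56 and 7.44 against 5.17 and 4.76, a difference of -3.04. Its relative LOX was at 8.20 and 6.02 against 3.08 and 3.35, so the difference was -5.11 within SCR and -2.66 within ADARkd. COL3A1 was at 7.35 and 4.93 against 4.45 and 4.73, and its difference of -1.55 had an adjusted p of 0.0391. That call of COL3A1 was lost in the fit to included genes alone (adjusted p = 0.0565), after quantile normalization (0.0956) and without the SCR array labelled HepG2 (difference -0.34, adjusted p = 0.147). The calls of LOX and COL3A1 were also lost without the SCR array of K562 (adjusted p = 0.0678 and 0.352) or its ADARkd array (0.067 and 0.343). COL1A1 and COL1A2, the main fibrillar collagen of connective tissue, were not called, at differences of -0.72 and 0.38; without the ADARkd array labelled HepG2 COL1A1 was called, at -1.28, and without the SCR one it differed by -0.16.

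Attachment genes were called mainly in the same direction. Of 25 integrins and syndecans 16 were included, 12 were called higher in the cells labelled HepG2 and 0 in K562. The median was -0.79. Of the 12, 4 were above the median in both lines. The collagen receptor chain ITGA2 was at 8.04 and 8.46 against 3.32 and 3.45, a difference of -4.86 ± 0.21. The hyaluronan receptor CD44 differed by -4.32 and the laminin receptor chain ITGA3 by -4.24. ITGB1, the beta chain shared by these integrins, was high in both lines (10.15 and 9.60 against 9.10 and 9.07), and its difference of -0.79 was under 2-fold, but -1.06 without the ADARkd array labelled HepG2 and -0.52 without the SCR one. Of 32 genes of caveolae, focal adhesions and contractile actin 29 were included, 16 were called higher in the cells labelled HepG2 and 1 in K562, at a median of -0.997. S100A16 was at 8.73 and 9.92 against 3.59 and 3.51, a difference of -5.77. CALD1, PALLD, CAV1 and TPM2 differed by -3.83, -3.51, -3.41 and -3.35. CNN1, a calponin, differed by 1.79.

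Cell junction genes held members of both kinds. Of 31 measured 15 were included, 11 were called higher in the cells labelled HepG2 (7 with either K562 array left out) and 1 in K562, at a median of -0.14. The neural cadherin CDH2 was at 8.52 and 8.79 against 3.91 and 3.63, a difference of -4.88 ± 0.22. DSP, the desmosome plakin, differed by -4.48, CLDN7 by -3.99 and PERP by -3.92. CLDN1, a tight-junction claudin, was at 6.81 and 9.24 against 3.55 and 3.72, a difference of -4.39. Without the SCR array of K562 the adjusted p of CLDN1 was 0.0657, and without its ADARkd array 0.0682. CDH1, the epithelial cadherin, was below the median on all 4 arrays (3.29 and 3.21 against 3.45 and 3.46). EPCAM, an epithelial surface protein, was at 3.98 and 4.01 on the arrays labelled HepG2 and at 7.88 and 7.56 in K562, a difference of 3.73 ± 0.21.

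Of 22 keratin and other intermediate filament genes 12 were included, with 3 called higher in the cells labelled HepG2 and 2 in K562; the latter number was 1 without the SCR array labelled HepG2 or either K562 array. The shares over all genes tested were 9.26% higher in the cells labelled HepG2 and 6.84% higher in K562. The simple keratin KRT7 was at 9.25 and 9.50 against 3.9999 and 4.23, a difference of -5.26. KRT8 and KRT18, which pair in simple epithelia, were well above the median in both lines and differed by -0.57 and -0.18, neither called. VIM, the mesenchymal filament vimentin, differed by -0.86, under 2-fold, but by -1.14 without the ADARkd array labelled HepG2 and by -0.59 without the SCR one. Among 14 mesenchymal transcription factors SNAI2 differed by -4.54 and ZEB2 by 2.17, while TWIST1 and ZEB1 differed by -0.69 and -0.40 and were not called. Secretory epithelial genes gave 5 calls among 18 measured, all higher in the cells labelled HepG2, and 3 without the SCR array of K562. Of these 5 genes 0 were above the median in both lines. TM4SF1, a small membrane protein, was at 11.14 and 11.05 against 4.19 and 4.15, a difference of -6.93 ± 0.21. The protease inhibitor SLPI was at 9.45 and 9.60 against 3.18 and 3.14, a difference of -6.37. CPS1, the first enzyme of the urea cycle, had the largest difference in this direction. It was at 10.89 and 10.56 against 3.21 and 3.29, a difference of -7.47 ± 0.22 (adjusted p = 1.95e-07).

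Genes of YAP, TAZ, their regulators and known targets were called mainly higher in the cells labelled HepG2. Of 24 measured 19 were included, 10 were called higher in the cells labelled HepG2 and 1 in K562; the median was -0.80. With either K562 array left out the 10 were 5. YAP1 was at 10.25 and 10.45 on the arrays labelled HepG2 and at 5.18 and 5.17 in K562, a difference of -5.18 ± 0.21 (adjusted p = 4.41e-07). WWTR1, which codes for TAZ, was at 7.63 and 7.13 against 3.90 and 4.14, a difference of -3.36. Of their DNA-binding partners TEAD1 differed by -2.95 and TEAD4 by 0.20, the latter not called. The target CCN2 was at 5.69 and 6.79 against 4.19 and 4.25, a difference of -2.02, and its relative CCN1 at 6.86 and 9.22 against 4.39 and 4.45, a difference of -3.62. F3, tissue factor, differed by -3.24. On the arrays labelled HepG2 these 3 targets were higher in ADARkd than in SCR. Their calls were lost without the SCR array of K562 (adjusted p = 0.0724 for CCN2, 0.0837 for CCN1 and 0.0526 for F3) or its ADARkd array (0.08, 0.101 and 0.0548). AMOTL1, an angiomotin that binds YAP, differed by 1.68.

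The CCN2 promoter is shown because it holds the TEAD motif GGAATG 3 times, at bases -169, -104 and -95 before the gene start. It is the RefSeq window of build GRCh38.p14 at chr6:131951323-131951622, minus strand, with the motif in capitals.
CCN2: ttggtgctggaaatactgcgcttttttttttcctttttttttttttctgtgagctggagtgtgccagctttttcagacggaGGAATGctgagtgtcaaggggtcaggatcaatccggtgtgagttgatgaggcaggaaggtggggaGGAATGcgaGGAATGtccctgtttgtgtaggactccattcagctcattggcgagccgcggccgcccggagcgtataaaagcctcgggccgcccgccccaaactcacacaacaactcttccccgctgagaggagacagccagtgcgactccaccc
Searched on both strands, GGAATG was found in 3 of 13 included genes of the YAP and TEAD list that have a window (YAP1, LATS2 and CCN2). Counted likewise, GGAATG was in 5 of 17 interferon-stimulated, 2 of 8 red-cell surface and membrane and 0 of 11 cell junction genes. Its share was 10.7% of the included genes, 13.2% of those called higher in the cells labelled HepG2, 9.94% of those called higher in K562 and 10.3% of those not called. The AP-1 motif TGAGTCA was in 4.13%, 3.36% and 2.38% of the same 3 groups. The ETS motif CCGGAAGT was in 3.39%, 5.35% and 11.5%, so it was more often found in genes not called than in either group called. A CACCC box, CCACACCC or CCCCACCC, was in 18.3%, 13.8% and 13.4%. Among genes at least 16-fold apart, GGAATG was in 7 of 35 higher in K562 and 13 of 86 higher in the cells labelled HepG2. Those shares were 20.0% and 15.1%, opposite in order to the shares of all included genes called. None of these shares was tested.

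Growth factor and cytokine receptor genes gave more calls for the cells labelled HepG2 than for K562, but most were not called. Of 30 receptor tyrosine kinases and EGF-type ligands 14 were included, 7 were called higher in the cells labelled HepG2 and 1 in K562. Of these calls 0 were above the median in both lines, so inclusion had already fixed their direction. With no filter 9 were called higher in the cells labelled HepG2 and 2 in K562. The median over the 30 was -0.02. The EGF receptor gene EGFR was at 9.20 and 8.92 against 3.88 and 4.01, a difference of -5.11 ± 0.22, and its ligand gene EREG differed by -4.59. MET, the receptor of hepatocyte growth factor, differed by -4.31, and FGFR1 by 1.59. Of 32 cytokine receptor and innate signaling genes 22 were included, 8 were called higher in the cells labelled HepG2 and 2 in K562; the median over the 32 was -0.37. Without the ADARkd array of K562 the numbers were 5 and 1, and without its SCR array the latter was 1. Of the 8 called higher in the cells labelled HepG2, 4 were above the median in both lines, and of the 2 called higher in K562, 0 were. The oncostatin M receptor chain OSMR was at 9.69 and 9.90 against 3.40 and 3.60, a difference of -6.29 ± 0.21. LIFR differed by -3.52 and IL6ST, the chain they share, by -1.75. IL18, a cytokine, was at 7.34 and 9.03 against 2.43 and 2.71, a difference of -5.62. TNFRSF1B, a receptor for tumor necrosis factor known from blood cells, differed by 1.72. The call of IL6ST was lost without the SCR array of K562 (adjusted p = 0.0581) or its ADARkd array (0.137).

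Included genes that interferon switches on were called in 1 direction, and most of the list was not called. Of 34 measured 19 were included, 13 were called higher in the cells labelled HepG2 and 0 in K562. The median was -0.76. Of the 13, 0 were above the median in both lines, so inclusion had already fixed their direction. With no filter 16 were called higher in the cells labelled HepG2 and 1 in K562. Without the SCR array of K562 the 13 were 7, and 1 gene was called higher in K562 without its ADARkd array or the SCR array labelled HepG2. IFIT1, which binds foreign RNA ends, was at 7.42 and 7.37 against 3.34 and 3.47, a difference of -3.99 ± 0.20 (adjusted p = 8.54e-07). IFIT2 was at 6.91 and 7.43 against 2.90 and 3.16, and OAS1, a sensor of double-stranded RNA, at 7.58 and 7.71 against 3.85 and 4.01. Their differences were -4.14 and -3.71. MX1 was below the median on all 4 arrays, and IFITM1 was high in both lines and not called (difference 0.71, adjusted p = 0.0577), but differed by 1.07 without the SCR array labelled HepG2 and by 0.34 without the ADARkd one. Of 22 antigen presentation genes the immunoproteasome subunit PSMB8 differed by -2.57 and the peptide trimmer ERAP1 by 2.01. B2M, the light chain of class I molecules, differed by -0.89, under 2-fold.

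Of 18 complement and acute phase genes 8 were included and 6 were called, all higher in the cells labelled HepG2. Of the 6, 1 was above the median in both lines. The median over the 18 was 0.15, opposite in sign to the calls, and -0.07 after quantile normalization. C3, the central complement component, was at 8.07 and 8.25 against 3.87 and 3.97, a difference of -4.24 ± 0.20, and CD55, which shields cells from it, differed by -2.89. C1S and C1R differed by -3.24 and -2.996. Without the SCR array of K562 their adjusted p was 0.0612 and 0.0706, and without its ADARkd array 0.0585 and 0.0721. Of 17 genes for ADARs and sensors of double-stranded RNA 10 were included and 2 were called, both higher in the cells labelled HepG2; this number was 4 without the ADARkd array labelled HepG2 and 1 without that of K562. The share called in that direction was 9.26% over all genes tested. ADARB1, the second editing enzyme, was at 8.15 and 8.26 against 5.88 and 5.72, a difference of -2.40 ± 0.21. ADAR differed by -0.73 (adjusted p = 0.0344), under 2-fold; the adjusted p was 0.0837 after quantile normalization and 0.361 with no arm term. Without the ADARkd array labelled HepG2 it differed by -1.57, without the SCR one by 0.11, and without the ADARkd array of K562 by -0.12. Those fits held no arm term, so the lowering of ADAR in the ADARkd arrays enters them. Within SCR and within ADARkd alike, ADAR was lower in K562. The kinase EIF2AK2, or PKR, differed by -0.53 and was not called.

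Of 22 NRF2 targets and xenobiotic enzymes 19 were included, 9 were called higher in the cells labelled HepG2 and 1 in K562. The export pump ABCC2 was at 8.54 and 8.995 against 3.45 and 3.51, a difference of -5.28 ± 0.22. ABCC3 differed by -3.40, ALDH1A3 by -2.76 and the cystine transporter SLC7A11 by -2.63. GSTP1, a glutathione transferase, was at 8.77 and 9.20 against 10.65 and 10.63, a difference of 1.65. Of 22 p53 targets 16 were included, with 6 called higher in the cells labelled HepG2 and 1 in K562. The 6 were 3 without the SCR array of K562 and 2 without its ADARkd array. The 1 was 0 with no arm term and without the SCR array labelled HepG2 or either K562 array, and 2 without the ADARkd array labelled HepG2. The death receptor FAS differed by -2.46 and TIGAR by -2.43.

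HOX genes, which set position along the body axis, differed by gene within a cluster. Of 22 measured 11 were included, 3 were called higher in K562 and 4 in the cells labelled HepG2. Of the 3, 2 were above the median in both lines, and of the 4, 0 were. HOXD13 was at 4.25 and 4.08 against 8.24 and 8.21, a difference of 4.06 ± 0.21. In the HOXB cluster HOXB5 was at 6.48 and 6.12 against 3.52 and 3.66 and HOXB6 at 6.39 and 5.996 against 3.50 and 3.64. HOXB9, of the same cluster, was at 6.59 and 6.45 against 8.61 and 8.53. Their differences were -2.71, -2.62 and 2.05. HOXC10 differed by -2.98.

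**Figure D4:**
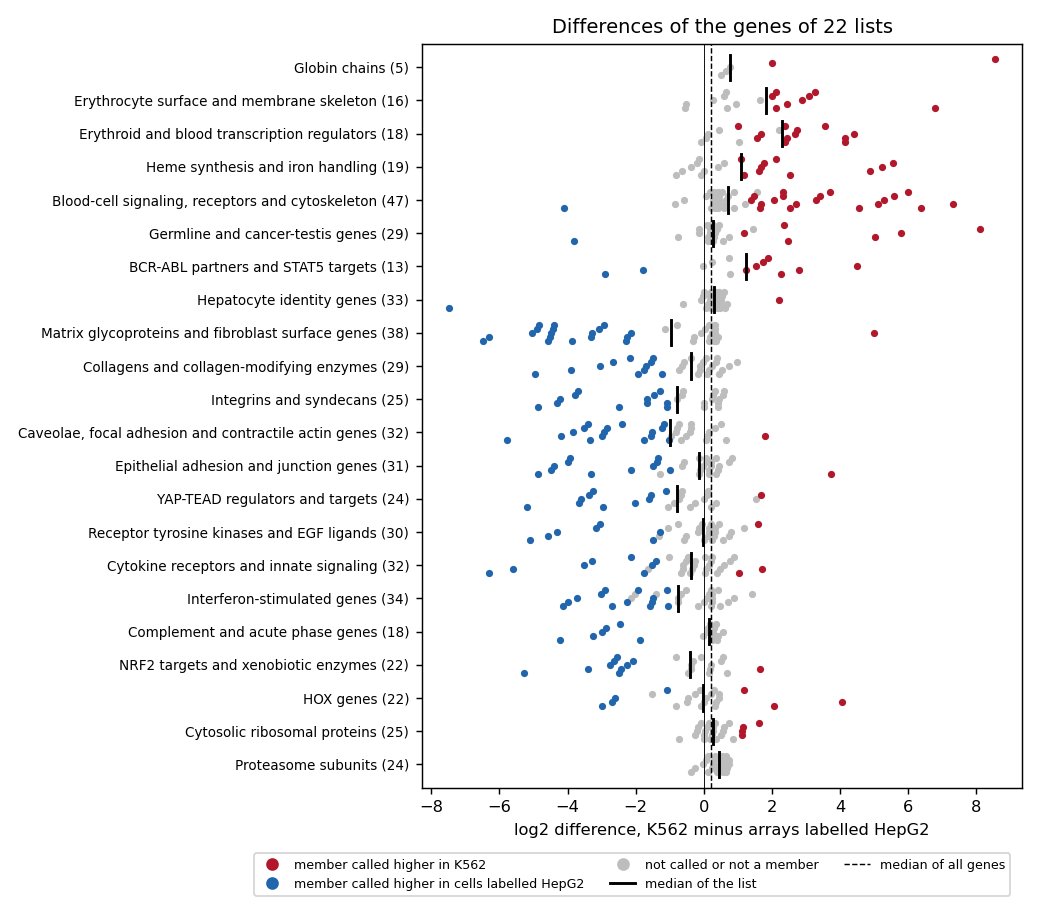
Log2 difference, K562 minus arrays labelled HepG2, of every measured gene of 22 lists, with the number measured in parentheses; black bars are list medians, the dashed line is the median of all genes (0.20), and colored points are included genes that were called. Medians run from 2.28 in the erythroid and blood regulators to -0.997 in the caveolae, adhesion and actin genes, and many lists hold genes on both sides.

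Genes above the median in both lines could not owe their inclusion to 1 line. Of these 6204, 875 (14.1%) were called, beside 16.1% of all genes. After MYB the largest difference in favor of K562 was that of LYAR, a nucleolar protein, at 5.22 and 5.84 against 8.91 and 8.74, a difference of 3.30 ± 0.25. HMGCS1 and SQLE, enzymes of cholesterol synthesis, differed by 2.78 and 2.33. HMGCS1 was at 6.39 and 7.07 against 9.63 and 9.38 and SQLE at 7.88 and 8.50 against 10.66 and 10.39. OAT, which makes glutamate semialdehyde from ornithine, differed by 2.504. In the other direction BASP1, a membrane protein that also acts as a transcriptional corepressor, was at 9.98 and 10.13 against 5.46 and 5.47, a difference of -4.59 ± 0.21. ATP1B1, a sodium pump subunit, differed by -4.19 and NDRG1, a gene induced by low oxygen, by -3.96. HIF1A, the oxygen-regulated transcription factor, was at 10.72 and 10.75 against 7.24 and 7.12, a difference of -3.56 ± 0.19. The phosphatase DUSP1 and ECH1, an enzyme of fatty acid oxidation, differed by -3.52 and -3.51.

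Calls among genes of general machinery differed by list. Over all genes tested 16.1% were called, and 6.84% were called higher in K562. Of 24 proteasome subunits 23 were included and 0 were called by limma; 10 passed an unadjusted p under 0.05 and 5 an adjusted one, with no difference above 0.75, and the median was 0.45. Without the ADARkd array labelled HepG2, 6 were called higher in K562. Of 25 cytosolic ribosomal proteins 23 were included and 4 were called higher in K562, among them RPL9 with a difference of 1.63; the 4 were 2 without the SCR array labelled HepG2, 1 without the SCR array of K562 and 0 without its ADARkd array. Its call was lost without the SCR array of K562 (adjusted p = 0.0638) or its ADARkd array (0.0866). RPL18 was at 11.33 and 11.29 against 11.28 and 11.32 and differed by -0.01. ACTB, cytoplasmic actin, was at 12.29 and 12.20 against 11.12 and 11.08, a difference of -1.15 (adjusted p = 0.000193), while ENO1, of glycolysis, differed by -0.21 and was not called.

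The line difference varied more across genes than between the arms. Of the 2017 genes called, 1621 were at least 2-fold apart in the same direction within SCR and within ADARkd, and 0 pointed in opposite directions. A call is harder to reach when the arms disagree, so this agreement is partly built in and is no evidence by itself. Of all 8028 included genes 1440 pointed in opposite directions, 30 of them with both values at least 0.5 in size. Over the 8028 genes the SD of the difference between arms was 0.51, beside an SD of 1.29 of the SCR difference itself. The arms lay 1 or more apart for 469 genes and 2 or more apart for 28. The change from SCR to ADARkd had an SD of 0.46 on the arrays labelled HepG2 and 0.20 in K562. With 1 array per line and arm, no difference between arms was tested.

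The line difference moved most between arms for the cytokine genes CXCL8 and IL6, and their change lay on the arrays labelled HepG2. CXCL8, the neutrophil chemokine interleukin-8, was at 4.36 (SCR) and 8.996 (ADARkd) on the arrays labelled HepG2 and at 5.07 and 4.58 in K562. K562 minus HepG2 was 0.72 within SCR and -4.42 within ADARkd. IL6, interleukin-6, was at 3.16 and 7.61 against 3.40 and 3.35, so the values were 0.24 and -4.27. CPA4, a carboxypeptidase, gave -2.27 and -5.27, the cytokine IL1A -2.15 and -4.75, and EPGN, an EGF-type ligand, -1.92 and -4.43. TUBA1B, a tubulin, moved by -2.61, with a change in K562 as well (7.04 to 5.73), and CCNQ, a cyclin, by -2.61. In the other direction HPD, an enzyme of tyrosine breakdown, was at 7.77 and 5.29 against 3.38 and 4.08, with line differences of -4.39 and -1.20. CPED1 was at 7.71 and 4.91 against 8.83 and 8.93, with line differences of 1.12 and 4.02. CXCL8 and IL6 were not called over both arms (adjusted p = 0.137 and 0.0775), and without the SCR array labelled HepG2 both were called, at -4.17 and -4.24. Without the ADARkd array labelled HepG2 their sign turned, at 0.47 and 0.22. CPA4, IL1A, EPGN, HPD and CPED1 were called, and their calls were lost without the SCR array of K562 (adjusted p = 0.115, 0.0805, 0.135, 0.166 and 0.181) or its ADARkd array (0.151, 0.118, 0.161, 0.145 and 0.253).

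**Figure D5:**
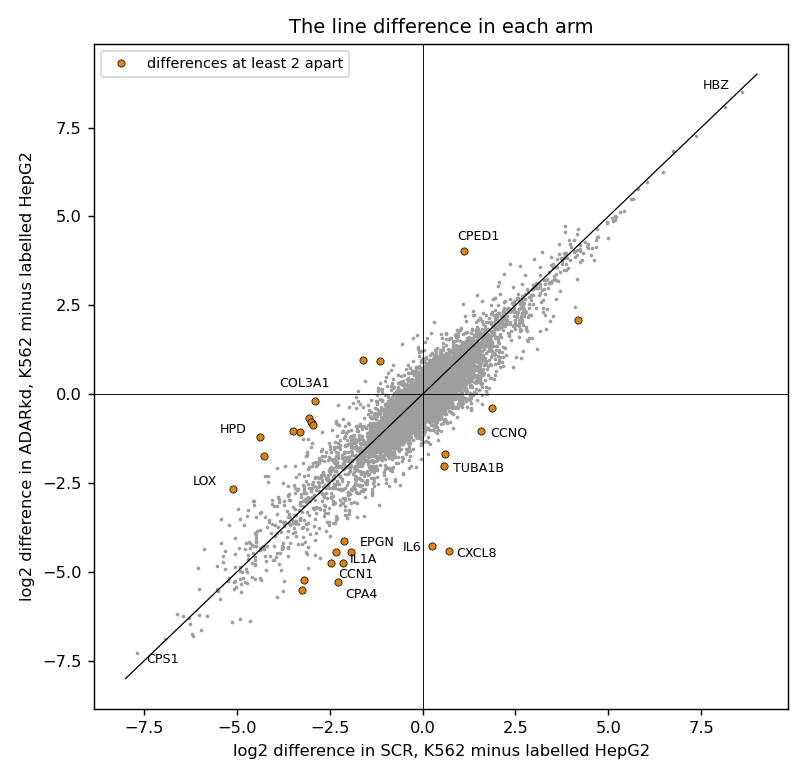
K562 minus HepG2 log2 difference within ADARkd (vertical axis) against that within SCR (horizontal axis) for the 8028 genes, 1 array per line and arm; orange points are the 28 genes whose differences lie 2 or more apart, and the diagonal marks equal differences. CXCL8 and IL6 lie near 0 in SCR and below -4.2 in ADARkd, while HBZ and CPS1 lie close to the diagonal.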

How the data were processed

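Total RNA was purified with TRIzol and biotin-labelled for Affymetrix whole-transcript arrays, per the labels' protocols. The deposited values are linear intensities, 1 per transcript cluster and array. RMA and the build hg18 come from the submitters' processing notes, and other steps are not given in the sources used here. Whether single probes rose above background was not analysed here.

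Of 17881 clusters 14432 had 1 gene symbol in the platform annotation, 2408 several and 1041 none; the last 2 kinds were not named. By Entrez number 14404 matched a RefSeq table of another assembly, used for names, gene order and promoter windows only. For 197 genes with more than 1 cluster, the brightest on average was kept. Log2 was taken with no offset. The mean of the K562 differences within SCR and ADARkd was fitted over all 14232 genes with limma 3.58.1 in R 4.3.3 (line and arm as terms, eBayes with trend, two-sided tests adjusted by Benjamini-Hochberg). The prior degrees of freedom were 8.18 and the median SE 0.21. A fold change or log2 difference is between the lines' means over 2 arrays. Its SE combines the gene's difference between arms, with 1 residual degree of freedom, and a variance shared across genes, with the 8.18 prior degrees. It is thus mostly a pooled error and not that of the single gene. The number of arrays limits the precision. The fit was tested on simulated data. Figures were drawn with matplotlib 3.10.9.

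The included genes and the 42 gene lists were chosen with earlier results of these data known, and no list was tested. Genes named were the 15 largest calls each way, 12 each way above the median in both lines, up to 8 per list (all of short lists) with defining genes for the label checks, all pairs, and 8 each way between arms. GATA2, FECH, TFRC, ABL1, COL1A1, COL1A2, KRT18, TEAD4, CNN1, GSTP1, MX1, IFITM1, FBN1, NT5E, FAP, PLIN2 and MOB3B were chosen after their values were seen.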

Additional observations from a re-analysis of the deposited data

Results flagged for a closer look

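In 1440 of the 8028 genes K562 minus HepG2 had opposite signs in the 2 arms, and in 30 of them both values were at least 0.5 in size. The difference between arms was not tested, since each line and arm has 1 array. Of the genes named, 5 were of this kind. CXCL8 gave 0.72 within SCR and -4.42 within ADARkd. TUBA1B, an alpha tubulin whose close relatives can share probes, gave 0.58 and -2.03; it was at 6.46 and 7.76 on the arrays labelled HepG2 and at 7.04 and 5.73 in K562. CCNQ, a cyclin, gave 1.57 and -1.04, and MB21D2 gave 0.61 and -1.67. TAS2R20, a taste receptor gene, gave -1.61 and 0.97. Without the SCR array labelled HepG2, TUBA1B and MB21D2 were called at -1.38 and -1.60, and without its ADARkd array CCNQ and TAS2R20 at 1.30 and -1.27. CCNQ (-0.77) and TAS2R20 (0.63) had the opposite sign without the SCR array labelled HepG2, as did MB21D2 (0.54) without the ADARkd one.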

How the results depend on the processing

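With the limit for inclusion at the 75th percentile the number called was 1159 (448 higher in K562, 711 in the cells labelled HepG2). Among genes above the median in both lines, a setting chosen after seeing the data, it was 875 (363 and 512). Leaving out each array in turn gave 1153 to 2162 genes (470 to 972 higher in K562, 656 to 1287 in the cells labelled HepG2). The lowest counts came without a K562 array, when the 2 arrays labelled HepG2 alone set the spread. Each fit without an array held no arm term. Calls lost and signs turned in these fits therefore mix the change from SCR to ADARkd with the loss of an array. Counts within 1.5 times of the main one came from quantile normalization (901 and 1109), log2 of intensity plus 16 (619 and 957), no filter (973 and 1318), a fit of included genes alone (830 and 1184), the mean of transcript clusters (829 and 1182), no arm term (817 and 1163) and no intensity trend (830 and 1186). LATS2 and LZTR1 lost their calls when either K562 array was left out (limma adjusted p = 0.0637 and 0.075 for LATS2, 0.0677 and 0.0742 for LZTR1), and PNPLA3 without the SCR one (limma adjusted p = 0.0587). LATS2 (-0.897) and PNPLA3 (-0.705) were also under 2-fold on log2 of intensity plus 16. Of the genes named, 0 of those called changed sign under these alternatives, and 15 of those not called did under at least 1. Of the 15, 7 differed by under 0.1 (ALAS1, GATA6, MMP2, MPP3, PRKCA, RPL18 and SMARCB1). CDH1 turned under quantile normalization (-0.05), and ADAR, CCNQ, CXCL8, IL6, KRT18, MB21D2 and TAS2R20 turned when 1 array was left out. Of 84 counts of calls by list and direction, 25 moved by over 1.5 times at the 75th percentile, 7 on log2 of intensity plus 16, 5 with no filter and 4 under quantile normalization. On the given strand alone the GATA motif was in 5.20%, 4.66% and 3.50% of genes called higher in K562, called higher in the cells labelled HepG2 and not called.

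The median difference of gut and pancreas, complement, ADAR and double-stranded RNA, and cell-cycle genes changed sign under quantile normalization. No paired analysis was possible because the labels number no replicates, so arrays are matched by arm alone; the fit holds arm as a term, and without it 817 and 1163 genes were called, as above. Levels near the bottom of the scale cannot be told from no expression here.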

Other observations

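Genes were also placed in the order of the RefSeq table of GRCh38.p14, and windows of 15 included neighbors were described; the windows below were chosen after their values were seen. Over 7701 windows the median difference ran from -2.46 to 1.64, with a median of 0.04. The highest window lay on chromosome 22 around LZTR1, where 13 of 15 genes were called higher in K562 and 0 lower. Of the 21 genes centered on CRKL, an adaptor of BCR-ABL1, 15 were called higher in K562 and 0 lower, at a median of 1.38. They include HIC2, a transcription repressor, at 3.04 (SCR) and 3.42 (ADARkd) on the arrays labelled HepG2 and 7.60 and 7.51 in K562, a difference of 4.33. ZNF280B and ZNF280A differed by 3.65 and 3.02, the topoisomerase gene TOP3B by 2.39 and the phosphatase PPM1F by 2.12. CHCHD10 and SMARCB1, at the edge of the stretch, differed by 0.18 and 0.05. The same span around ABL1 on chromosome 9 held 4 genes called higher in K562 and 2 lower, at a median of -0.04. Copy number was not analysed here.

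In a window on chromosome 19 from JOSD2 to ZNF321P, rich in zinc-finger genes, 10 of 15 genes were called higher in K562 and 0 lower, at a median of 1.49. The lowest window, on chromosome 10 around IFIT3, held 9 genes called higher in the cells labelled HepG2 and 0 in K562. It includes the interferon-induced IFIT genes described above. A window on chromosome 5 around OSMR held 10 such genes, at a median of -1.69.

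WT1, a transcription factor of kidney and blood progenitors, was at 4.59 and 4.56 on the arrays labelled HepG2 and at 7.17 and 7.28 in K562, a difference of 2.65. MSLN, the mesothelial surface protein mesothelin, went the other way at 6.35 and 5.82 against 4.08 and 4.07, a difference of -2.01. TRIM29 and SFN, markers of squamous epithelium, differed by -4.27 and -3.43. CYP2E1, a hepatocyte enzyme that oxidizes ethanol, was at 3.63 and 3.54 on the arrays labelled HepG2 and at 5.79 and 5.77 in K562, a difference of 2.19.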
